A study of Ovis aries with 32 samples.

Results

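The genes described here are those of glycolysis and of the response to low oxygen, a set of 36 gene symbols given as a list and matched to the gene names of an RNA-seq table from fetal sheep preadipocytes. The table names 30 of them, each by 1 gene ID, among 21271 genes. All 30 passed the filter on low values (10 or more in 4 or more libraries), which 12737 genes passed. LDHA, LDHB, PGAM1, EGLN1, VHL and BNIP3L were not analysed here. The choice of members used no measured value of these libraries, although it was made with earlier results of the data known.

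The cells were perirenal preadipocytes from near-term fetuses of crossbred Columbia-Rambouillet ewes carrying singletons. They were sequenced before (MC, FC, MFGR and FFGR) and after (MCD, FCD, MFGRD and FFGRD) differentiation to mature adipocytes in culture. M and F stand for male and female fetuses and C for control fetuses of pair-fed ewes kept at ordinary temperature. FGR stands for fetal growth restriction, produced by holding the ewe in a hot environment in mid gestation, which leads to placental insufficiency, so that heat exposure and restricted growth cannot be told apart. Each of the 8 groups held 4 libraries, and the labels do not say whether libraries with the same number came from the same fetus, so p-values measure the spread between these libraries. All libraries came from cultured cells, and the labels give no oxygen level for the cultures.

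Glycolysis splits glucose to pyruvate in the cytosol, and its pace is set largely by the hexokinases and by phosphofructokinase, which the PFKFB enzymes regulate through fructose 2,6-bisphosphate. Pyruvate that is turned to lactate leaves the cell through the monocarboxylate transporters SLC16A1 and SLC16A3. When oxygen falls, the alpha subunits HIF1A and EPAS1 escape the prolyl hydroxylases (EGLN genes) and VHL, pair with ARNT and switch on genes for glycolysis, vessel growth, pH control and mitophagy. The alpha subunits are controlled mainly as proteins, so their RNA is not a measure of their activity. In fat cells glycolysis also supplies glycerol phosphate and acetyl-CoA for triglyceride.

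The value of a gene is the sum of its transcripts in normalized reads, given to 4 significant digits, and it is not divided by gene length. The libraries held approximately 7.91 to 21.5 M reads (median 13.3 M), and 1 read was worth approximately 0.691 to 1.81. All 10 mature adipocyte markers rose with differentiation, and their summed level was 88.3 to 2046 in preadipocytes and 416.2 to 186300 in differentiated cells. Of the 7 preadipocyte or fibroblast markers tested, 3 fell and 1 rose (summed level 171000 to 1277000 before and 84960 to 929600 after). All 3 proliferation genes tested rose (151.4 to 7724 before and 824.3 to 6666 after). The markers of other cell types had summed levels of at most 92.7 and 287 for endothelial, 938.5 and 619 for blood or macrophage, 2380 and 172.5 for muscle and 627.8 and 65.8 for mesothelial or epithelial markers in the 2 stages. Among these, KDR, CD68 and DES fell and CD163 rose, and no listed marker that the table names was at 0 in all libraries. The part of these markers in the results below was not tested, and in such bulk samples fewer cells of a type and less RNA per cell cannot be told apart.

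Some libraries stood apart in ways that touch the genes below. In 9 libraries, 4 of preadipocytes and 5 of differentiated cells, values fell with the length of the gene on the chromosome relative to the other libraries (a slope below -0.2 log2 units per 10-fold length, the nearest other library being at -0.06). Abundant enzymes of short genes were high in them. ALDOA had a median of 15600 in the 4 preadipocyte libraries and 6980 in the other 12, and 23770 against 8465 in differentiated cells. HIF1A went the other way, with 1952 against 10960 in preadipocytes and 7961 against 20000 in differentiated cells. Separately, the preadipocyte libraries FC replicate 1 and FFGR replicate 1 held by far the highest values of many hypoxia genes, described below. The main results that move with either set are given with and without it.

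**Figure D1:**
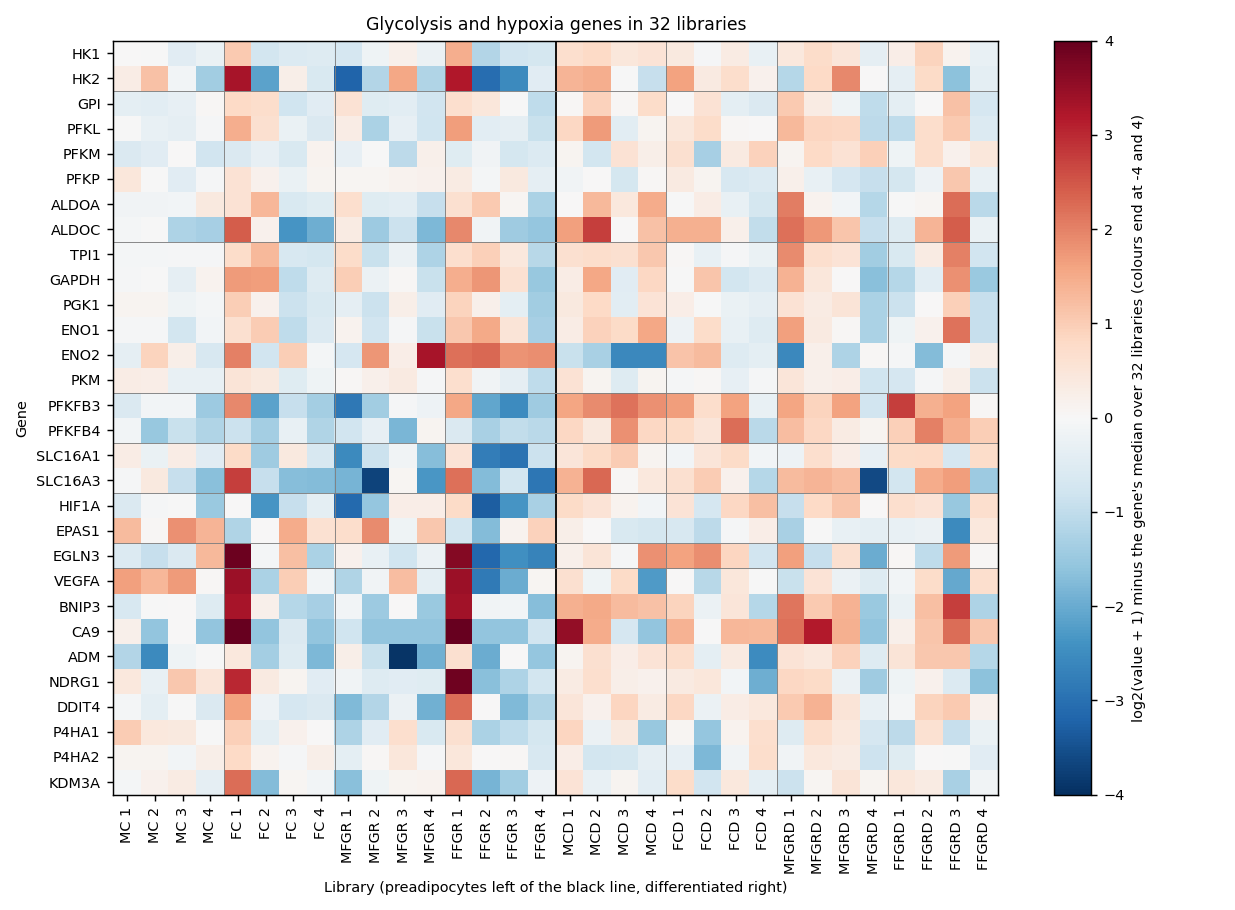
Each cell shows log2(value + 1) of 1 of the 30 genes (rows, ordered by role) in 1 of the 32 libraries (columns, by group and replicate) minus the median of that gene over the 32 libraries; colours end at -4 and 4. FC 1 and FFGR 1 are dark red in EGLN3, VEGFA, BNIP3, CA9 and NDRG1, and PFKFB3 and PFKFB4 are red mainly right of the black line, in the differentiated cells.

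The first comparison asked how the genes change when preadipocytes become adipocytes. Over all groups, 16 differentiated against 16 preadipocyte libraries, 8 members rose (PFKFB3, PFKFB4, ALDOC, HIF1A, ADM, SLC16A1, DDIT4 and PFKM) and 2 fell (ENO2 and EPAS1). A gene was called when its adjusted p was below 0.05 over all genes tested and its fold change was above 1.5. The 10 calls among 30 members compare with 27.2% of all genes tested, 12.4% called higher and 14.8% called lower, so the share of members called was near that of all genes. The median log2 difference of the members was 0.41 and that of all genes 0.03, and 21 of the 30 members lay above 0. Values of the stages overlapped in all 30 members (stages that do not overlap made up 1.09% of all genes).

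**Figure D2:**
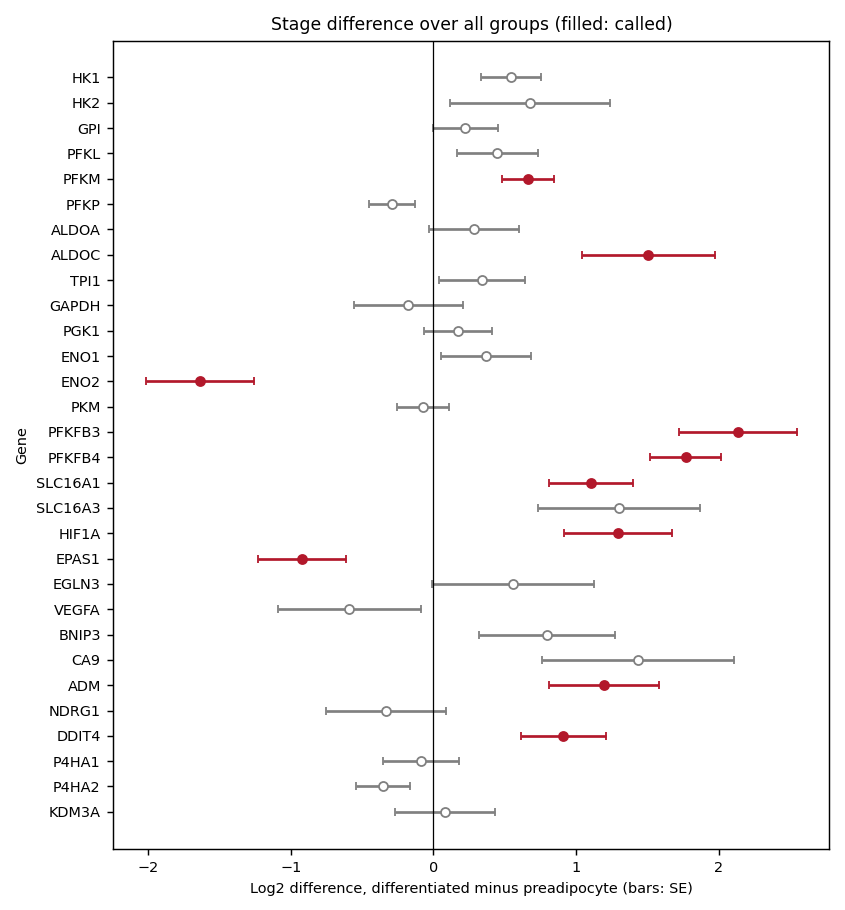
The horizontal axis is the log2 difference of differentiated minus preadipocyte libraries over all groups with its standard error, on the log2(value + 1) scale, for the 30 genes ordered by role; filled red points were called and open grey points were not. PFKFB3 (2.14) and PFKFB4 (1.77) lie farthest right and ENO2 (-1.63) farthest left, whereas GAPDH and PKM lie near 0.

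Both PFKFB genes among the members rose. Of their relatives outside the members, PFKFB1 is given below and PFKFB2 was not called (log2 -0.35 ± 0.27, adjusted p = 0.347). PFKFB3 (chromosome 13, 11483847 to 11590748, Oar_rambouillet_v1.0), whose enzyme strongly favours making fructose 2,6-bisphosphate, was 43.9 at the lowest, 148.9 at the median and 1227 at the highest in preadipocytes. In differentiated cells it was 193, 982.6 and 2221. All 16 differentiated libraries lay above the preadipocyte median and 2 above the highest preadipocyte library, which was FC replicate 1. The difference was 4.39-fold (log2 2.14 ± 0.41 SE, adjusted p = 0.000187). PFKFB3 has 7 transcripts in the table, and its most abundant one alone differed by 1.98 with an adjusted p of 0.152. Without the 9 libraries of low slope the difference of the gene was 1.51 (adjusted p = 0.0164).

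PFKFB4 (chromosome 19, 53293360 to 53327109), a relative of PFKFB3, separated the stages most cleanly of the members. Its values were 43.0, 79.9 and 168.1 in preadipocytes and 72.1, 274.7 and 724 in differentiated cells. Of the 16 differentiated libraries, 14 lay above every preadipocyte library, the others being FCD replicate 4 (72.1) and MFGRD replicate 4 (164.7). The difference was 3.41-fold (log2 1.77 ± 0.25, adjusted p = 2.77e-06), and it kept its call in all 12 other settings and in all 32 fits that left out 1 library.

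The HIF alpha subunits moved in opposite directions. HIF1A (chromosome 7, 76766822 to 76812687) was 1270, 7519 and 21280 in preadipocytes and 4389, 18520 and 29170 in differentiated cells. It rose 2.45-fold (log2 1.29 ± 0.38, adjusted p = 0.00917). With the slope on gene length as a covariate the difference was 1.33 (adjusted p = 9.62e-06). EPAS1 (chromosome 3, 83230337 to 83322541), which encodes HIF-2alpha, was 2587, 13810 and 31940 in preadipocytes and 1474, 7070 and 11650 in differentiated cells. All 16 differentiated libraries lay below the preadipocyte median. EPAS1 fell 1.89-fold (log2 -0.92 ± 0.31, adjusted p = 0.0216), but the call was lost under quantile normalization (log2 -0.80, adjusted p = 0.0864) and without the 9 libraries of low slope (log2 -0.76, adjusted p = 0.0683).

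Within a library, the log2 ratio of EPAS1 to HIF1A was lower in all 16 differentiated libraries than the preadipocyte median. It ran from -2.02 to 3.28 with a median of 1.31 in preadipocytes, and from -1.94 to -0.77 with a median of -1.28 after differentiation. The spread between libraries was 1.56 (SD, n = 16) before and 0.32 (SD, n = 16) after. FC replicate 1 (-1.73) and FFGR replicate 1 (-2.02) had the lowest preadipocyte ratios. MFGR replicate 1, a library of low slope, had the highest (3.28). These libraries widen the spread before differentiation, and the spread without them is not given here. FC replicate 1 and FFGR replicate 1 had 3796 and 5260 of EPAS1, ranks 15 and 14 of the 16 preadipocyte libraries. Ratios of related genes are descriptions of the shift between stages and were not tested, and their absolute size carries the lengths of both genes.

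**Figure D3:**
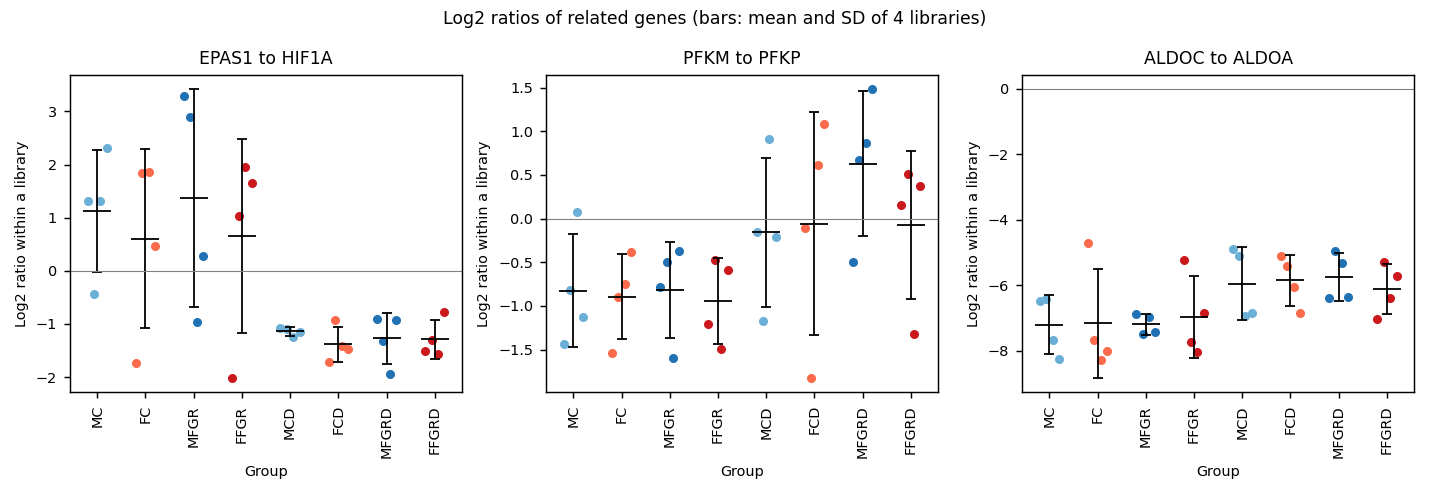
The vertical axes give the log2 ratio within a library of EPAS1 to HIF1A, PFKM to PFKP and ALDOC to ALDOA, by group; points are libraries and bars the mean and SD of 4. The EPAS1 to HIF1A means are between 0.61 and 1.37 in the preadipocyte groups and between -1.38 and -1.14 in the differentiated groups, where the points also lie close together.

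Hexokinases trap glucose in the cell as glucose 6-phosphate. HK1, the widespread form, was 1357, 2424 and 8414 in preadipocytes and 2395, 4083 and 5718 after differentiation. Its difference passed the test but not the limit on fold change (log2 0.54 ± 0.21, 1.46-fold, adjusted p = 0.0464). HK2, the form that responds to insulin and hypoxia, was 46.0, 301.5 and 4309 before and 139.3, 524.5 and 1629 after. Its difference was not called (log2 0.68 ± 0.56, adjusted p = 0.399), and its 2 highest preadipocyte values were FC replicate 1 (4309) and FFGR replicate 1 (3964). Without the 9 libraries of low slope the differences were 0.29 for HK1 (adjusted p = 0.367) and 0.09 for HK2 (adjusted p = 0.914).

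Of the 6 genes of upper glycolysis, 2 rose and 4 were not called. PFKM, the muscle-type phosphofructokinase, was 509.6, 766 and 1217 in preadipocytes and 425.5, 1407 and 2044 in differentiated cells. It lay above the highest preadipocyte library in 10 of 16 differentiated libraries and below the lowest in 1, FCD replicate 2. The difference was 1.58-fold (log2 0.66 ± 0.18, adjusted p = 0.00614). The platelet-type PFKP had a difference of -0.29 ± 0.16 (adjusted p = 0.179) and the liver-type PFKL one of 0.45 ± 0.29 (adjusted p = 0.249). The log2 ratio of PFKM to PFKP had a median of -0.80 before and 0.26 after differentiation, and it exceeded the preadipocyte median in 13 of 16 libraries.

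ALDOC, the brain-type aldolase, was 16.9, 43.3 and 485 in preadipocytes and 44.6, 217.3 and 614.9 after differentiation. All 16 differentiated libraries were above the preadipocyte median, and it rose 2.84-fold (log2 1.51 ± 0.47, adjusted p = 0.0131). Without the 9 libraries of low slope the difference was 1.09 and not called (adjusted p = 0.137). The widespread form ALDOA had a difference of 0.29 ± 0.31 (adjusted p = 0.542).

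The enzymes of the trunk of the pathway, GPI, ALDOA, TPI1, GAPDH, PGK1, ENO1 and PKM, were not called, with log2 differences from -0.17 to 0.37 and adjusted p from 0.411 to 0.800. Without the 9 libraries of low slope and FC replicate 1 and FFGR replicate 1, TPI1 (log2 0.69, adjusted p = 0.0376) and ENO1 (0.63, 0.0391) were called. This setting was chosen after seeing the data. FC replicate 1 and FFGR replicate 1 held 14930 and 14330 of TPI1 and 30650 and 41460 of ENO1. These were above all other preadipocyte libraries not of low slope. Leaving them out therefore raised both differences by construction, and these calls are no support for a rise. GAPDH, often taken as a reference gene, ran from 1647 to 16050 in preadipocytes and from 1461 to 16830 after differentiation. PKM, which makes pyruvate, had medians of 37650 and 37600. A difference that was not called does not show that these genes were equal between stages.

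ENO2, the neuronal enolase, was the largest fall among the members, at very low values. It reached 10 in 11 libraries, and its differentiated libraries alone would not have passed the filter. A gene that passes through its higher stage is favoured to show a fall. It was 2.56, 10.5 and 57.8 in preadipocytes and 0, 3.37 and 13.5 in differentiated cells, 7 of which lay at or below the value of approximately 3 reads. The difference was 3.10-fold lower (log2 -1.63 ± 0.38, adjusted p = 0.00133). Because so few reads carry it, its size depends on the pseudocount.

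SLC16A1, which carries lactate and pyruvate across the cell membrane, was 200.9, 1065 and 2662 in preadipocytes and 962.6, 2160 and 3107 after differentiation. It lay above the preadipocyte median in 15 of 16 differentiated libraries and rose 2.15-fold (log2 1.10 ± 0.30, adjusted p = 0.00456). Without the 9 libraries of low slope it rose by 0.70 (adjusted p = 0.0194). SLC16A3, the lactate exporter of glycolytic cells, was 9.74, 57.2 and 942.3 before and 10.3, 248.5 and 674 after. Its larger difference was not called (log2 1.30 ± 0.57, adjusted p = 0.0793). With the replicate number as a block in all groups it was called (adjusted p = 0.0387). This included FFGR, where not all numbers paired the libraries.

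Among the 9 hypoxia targets tested, ADM and DDIT4 rose and 7 were not called. ADM, the vasodilator adrenomedullin, was 155.2, 1144 and 3686 in preadipocytes and 412.4, 3275 and 5003 in differentiated cells. It rose 2.29-fold (log2 1.20 ± 0.39, adjusted p = 0.0177), but the call was lost without the 9 libraries of low slope (log2 1.11, adjusted p = 0.0777). DDIT4, an inhibitor of mTORC1 that glucocorticoids also induce, was 329.5, 890.4 and 5847 before and 1010, 1707 and 3276 after. All 16 differentiated libraries exceeded the preadipocyte median, and it rose 1.88-fold (log2 0.91 ± 0.30, adjusted p = 0.0182), a call also lost without those 9 libraries (log2 0.70, adjusted p = 0.134). With FC replicate 1 and FFGR replicate 1 left out as well, the 4 genes that lost their call without the 9 libraries were called again: ALDOC (log2 1.91, adjusted p = 0.00243), ADM (1.51, 0.0338), DDIT4 (1.32, 0.000512) and EPAS1 (-1.15, 0.00517). FC replicate 1 and FFGR replicate 1 were singled out by their values. They were the highest 2 preadipocyte libraries in ALDOC, ADM and DDIT4 and ranked 15 and 14 in EPAS1. Leaving them out therefore widens each of these differences by construction, and the regained calls are no support for them.

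VEGFA, the main growth factor of blood vessels, did not follow ADM and DDIT4 in value. It was 404.7, 3004 and 31360 in preadipocytes and 605.9, 2773 and 4903 in differentiated cells, a difference of -0.59 ± 0.50 (adjusted p = 0.409). Differences of the collagen prolyl hydroxylases P4HA1 (-0.09) and P4HA2 (-0.35) and of the histone demethylase KDM3A (0.08) were small beside those of the called genes. EGLN3, the oxygen sensor that hypoxia itself induces, had a difference of 0.56 ± 0.57 (adjusted p = 0.502).

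**Figure D4:**
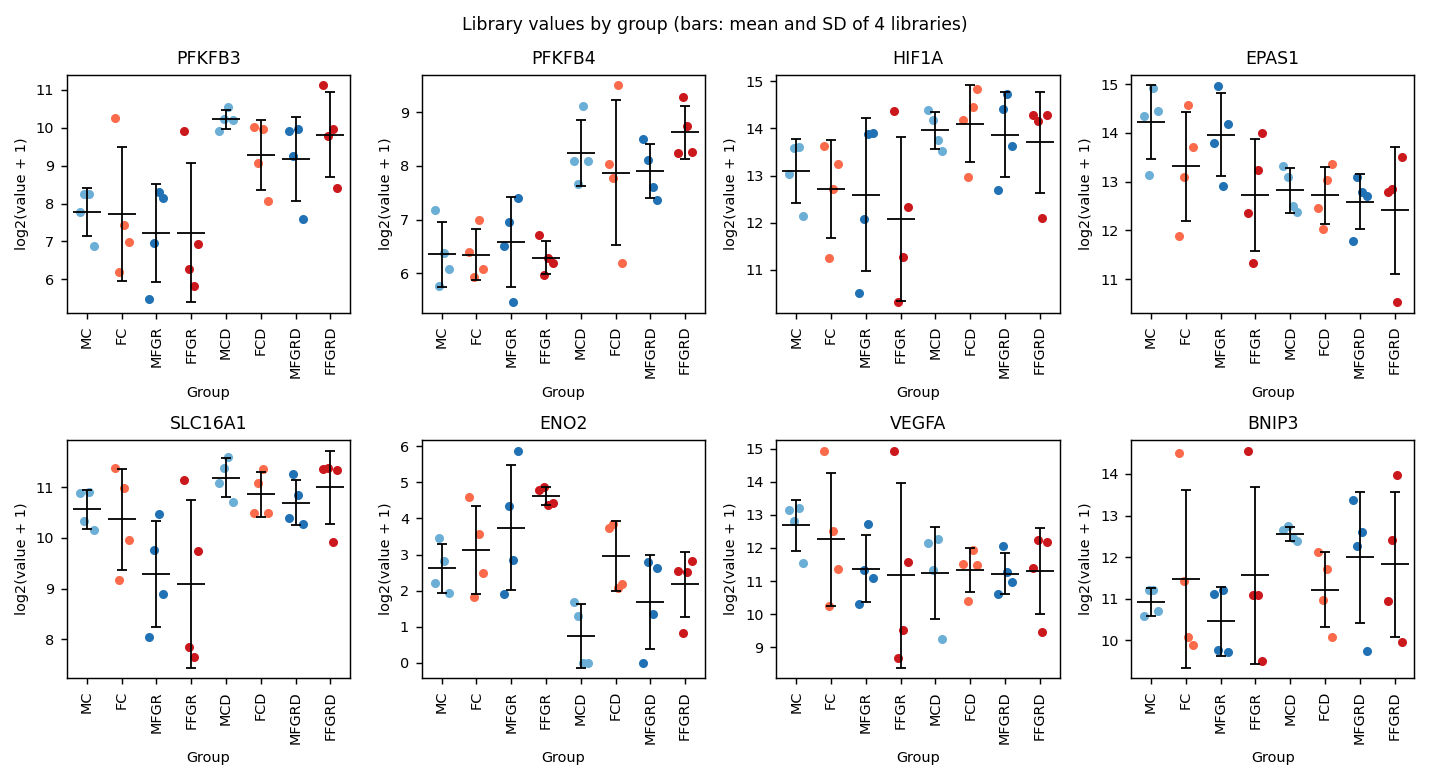
The vertical axes give log2(value + 1) of 8 genes in each library, by group; points are libraries and bars the mean and SD of 4. PFKFB4 is higher in nearly all differentiated libraries, EPAS1 is lower, and in VEGFA and BNIP3 1 FC and 1 FFGR library lie far above the other preadipocytes.

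The stage comparison depended on FC replicate 1 and FFGR replicate 1, the libraries with the highest VEGFA (31360 and 31130, against 404.7 to 9371 in the other 14 preadipocyte libraries). BNIP3, a mitophagy receptor, was 23370 and 24140 in them and at most 2745 in the others. NDRG1 was 7846 and 14470 against at most 2037. CA9, the carbonic anhydrase that marks hypoxic cells, was 46.5 and 157.4 against at most 2.44. EGLN3 was 322.5 and 268.7 against at most 51.4. These genes were chosen after their values were seen.

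Both libraries together were the highest 2 of the 16 preadipocyte libraries in 17 of the 30 members, against 8.99% of all genes tested. Since the libraries were singled out by such values, the count is a description. It held 7 of the 9 hypoxia targets, both hexokinases, both lactate transporters, PFKFB3 and EGLN3, but neither HIF1A nor EPAS1, nor PFKFB4. Of the 18 glycolysis and lactate members it held 9. GPI, ALDOA, TPI1, GAPDH and ENO1 were among those left out. Of the other hypoxia response genes, a list of 30 symbols with 28 gene IDs tested, 21 had these libraries as the highest 2, among them PDK1, ANKRD37, ERO1A and BHLHE40. Only 2 of 14 other glycolysis genes tested did (SLC2A1 and SLC2A3). In the differentiated libraries with the same numbers, FCD replicate 1 and FFGRD replicate 1, VEGFA was 2937 and 2689, BNIP3 4449 and 1975 and NDRG1 1235 and 863. ADM was 3850 and 3381 there and PFKFB3 1030 and 2221, the latter the highest of all differentiated libraries, so not all of the 17 members were lower. FC replicate 1 and FFGR replicate 1 held approximately 10.7 and 15.1 M reads, and neither was among the 9 of low slope.

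Without these 2 libraries, 17 members were called in the stage comparison in place of 10, and the 10 were all among them. The share of all genes called was 27.3% in that setting and 27.2% with all libraries. Added were BNIP3 (log2 1.30, adjusted p = 0.00789), CA9 (2.20, 0.000710), SLC16A3 (1.82, 0.00536), HK2 (1.26, 0.0274), EGLN3 (1.21, 0.0159), HK1 (0.79, 5.23e-05) and PFKL (0.68, 0.0421). The difference of VEGFA went from -0.59 to -0.05 and that of NDRG1 from -0.33 to 0.18, neither of them called. This setting was chosen after seeing the data. Every added gene had these 2 libraries as its highest preadipocyte libraries, so leaving them out raised its difference by construction. The added calls are a description and not a test. In this setting CA9 was at most 2.44 in preadipocytes and passed the filter only through differentiated libraries.

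Within single groups, 4 differentiated against 4 preadipocyte libraries, fewer members passed. In MC, PFKFB4 alone was called, against 8.35% of all genes. Its values were 144.3, 53.4, 82.4 and 67.1 in MC and 272.1, 203.1, 554.4 and 273 in MCD, without overlap (log2 1.89 ± 0.50, adjusted p = 0.0152). With the replicate number as a block, 3 members were called (PFKFB3, PFKFB4 and ENO2). In FC no member was called by limma, against 2.52% of all genes, with 1 member at an unadjusted p below 0.05. With the block, PFKFB4 was called (log2 1.53, adjusted p = 0.0439). In MFGR no member was called by limma, against 5.13% of all genes, and 9 had an unadjusted p below 0.05. With the block, DDIT4 (log2 1.94, adjusted p = 0.0433) and ENO2 (log2 -2.06, adjusted p = 0.0419) were called. The counts with the block stand without the share of all genes called in each group. Over all groups that share was 31.6% with the block and 27.2% in the main fit. The added calls therefore cannot be told here from a change in all genes.

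In FFGR 4 members were called, against 10.3% of all genes. PFKFB4 was 103.5, 61.5, 77.4 and 72.4 in FFGR and 300.1, 622.2, 427.1 and 306.8 in FFGRD, without overlap (log2 2.34 ± 0.50, adjusted p = 0.00274). SLC16A1 was 2258, 229.1, 200.9 and 856.1 in FFGR and 2632, 2669, 962.6 and 2576 in FFGRD (log2 1.90 ± 0.59, adjusted p = 0.0372). PFKFB3 rose by 2.58 ± 0.82 on the log2 scale (adjusted p = 0.0419). ENO2 was 26.7, 28.1, 19.9 and 20.7 in FFGR and 4.80, 0.789, 4.73 and 6.01 in FFGRD, without overlap (log2 -2.44 ± 0.76, adjusted p = 0.0372). The count was 7 without FC replicate 1 and FFGR replicate 1, 6 without FFGR replicate 1 alone and 0 without the libraries of low slope, FFGR replicates 2 and 3 and FFGRD replicate 3 in this group. These counts stand without the share of all genes called in each setting. The 0 rests on fewer libraries at both stages, and FFGR replicate 1 was singled out by its values. Among the 4 groups, the change with differentiation was compared only between growth-restricted and control cells, and no member passed that test, given below. Whether this change differed between the sexes was not tested.

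The next comparison asked whether growth restriction changes these genes. In preadipocytes, 8 FGR against 8 control libraries, no member and no gene of the 12737 was called by limma (0.0% of all genes). At an unadjusted p below 0.05 there were 3 members and 344 genes. In value, 24 of the 30 members were lower in FGR, with log2 differences from -1.28 to 1.31, a median of -0.21 (-0.02 for all genes) and a median standard error of 0.45. The 2 smallest unadjusted p belonged to SLC16A1 and ENO2.

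SLC16A1 was 1889, 1280, 1923 and 1141 in MC and 2662, 575.4, 2012 and 989.8 in FC. It was 264.6, 862.3, 1416 and 472.7 in MFGR and 2258, 229.1, 200.9 and 856.1 in FFGR. Both FGR groups reached below the lowest control library, and FFGR replicate 1 was above all control libraries but FC replicate 1. The log2 difference was -1.28 ± 0.42 (unadjusted p = 0.00505, adjusted p = 0.840). Of the 4 preadipocyte libraries of low slope, 3 were FGR and had SLC16A1 at 264.6, 229.1 and 200.9, and over all settings other than leaving out 1 library the difference lay between -1.45 and -0.60.

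ENO2 was 3.66, 10.1, 6.11 and 2.84 in MC and 23.3, 2.56, 10.9 and 4.66 in FC. It was 2.78, 19.4, 6.14 and 57.8 in MFGR and 26.7, 28.1, 19.9 and 20.7 in FFGR. The groups overlapped, and the difference was 1.31 ± 0.54 (unadjusted p = 0.0215, adjusted p = 0.840). HIF1A (-0.57 ± 0.54), EPAS1 (-0.42 ± 0.44) and VEGFA (-1.20 ± 0.71) were not called either, each with an adjusted p of 0.840. Without the libraries of low slope, 3 of which were FGR and 1 control among the preadipocytes, the differences were 0.18 for HIF1A, -0.20 for EPAS1 and -0.32 for VEGFA, and 20 of the 30 members were lower in FGR with a median of -0.13. With FC replicate 1 and FFGR replicate 1 left out as well, 28 were lower and 1 higher, with a median of -0.44. None was called in either setting.

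In differentiated cells, 8 FGR against 8 control libraries, no member and no gene was called by limma (0.0% of all genes), and 0 members and 136 genes had an unadjusted p below 0.05. The log2 differences of the members ran from -0.75 to 0.40 with a median of -0.09. The smallest unadjusted p belonged to PFKM (0.35 ± 0.26, adjusted p = 1.00) and EGLN3 (-0.75 ± 0.80, adjusted p = 1.00). PFKM was 1146, 629.6, 1597 and 1237 in MCD, 1648, 425.5, 1354 and 2019 in FCD, 1137, 1823, 1595 and 2044 in MFGRD and 945.2, 1718, 1187 and 1461 in FFGRD, overlapping throughout. EGLN3 was 23.4, 29.3, 19.6 and 74.3 in MCD and 63.8, 75.0, 37.5 and 11.3 in FCD. It was 65.0, 10.1, 31.8 and 4.31 in MFGRD and 20.7, 9.38, 67.1 and 21.0 in FFGRD, again overlapping.

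**Figure D5:**
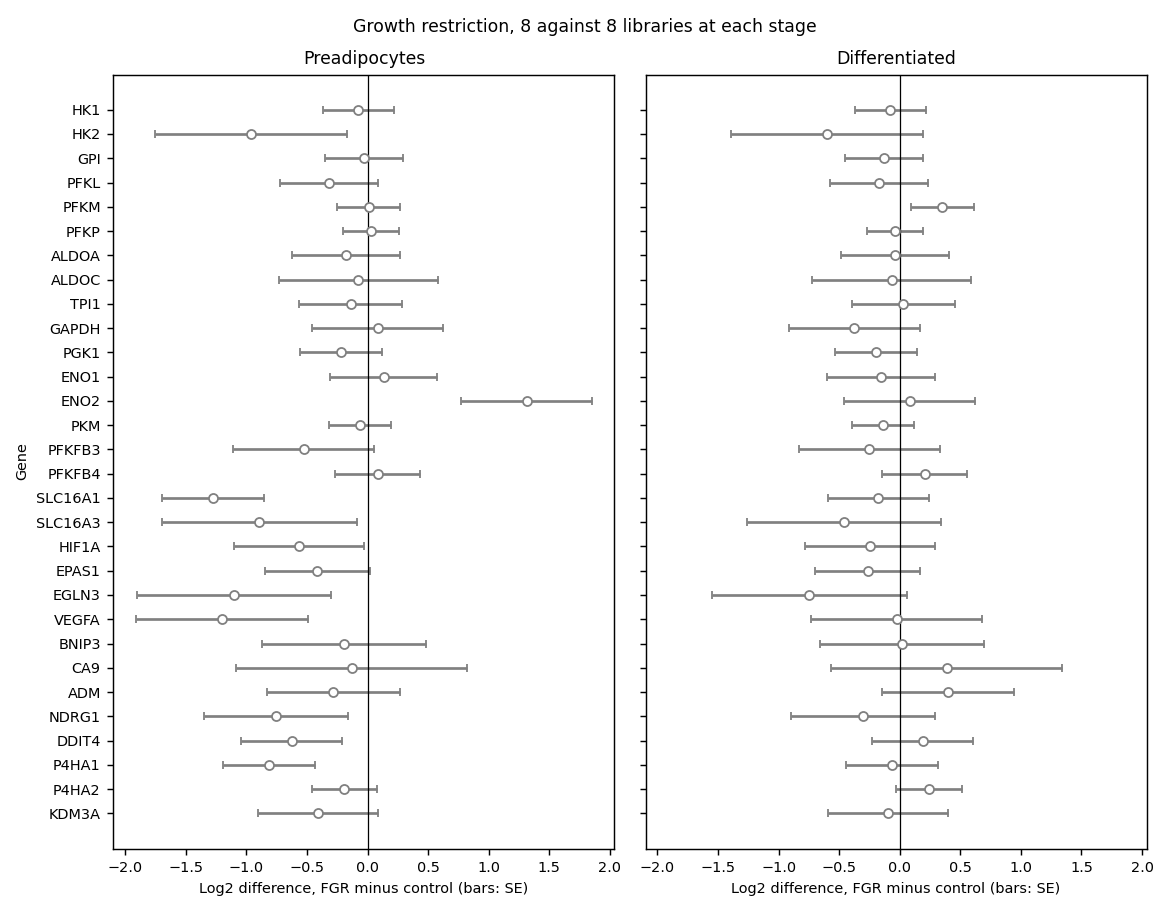
The horizontal axes give the log2 difference of FGR minus control with its standard error for the 30 genes, in preadipocytes (left) and differentiated cells (right), 8 against 8 libraries each. SLC16A1 (-1.28) and ENO2 (1.31) lie farthest from 0 in preadipocytes, no point was called, and the differences in differentiated cells lie between -0.75 and 0.40.

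Within 1 sex, the 4 growth restriction comparisons also called no member and no gene by limma (0.0% of all genes), with 169 to 342 genes and 1 member at an unadjusted p below 0.05 in male and in female preadipocytes (SLC16A1 in both) and 0 members in differentiated cells of either sex. The test of whether the change with differentiation differed between FGR and control cells called no member over both sexes, in males or in females (0.0% of all genes by limma, with 0, 0 and 1 members and 132, 159 and 61 genes at an unadjusted p below 0.05, the 1 member being ENO2). Between the sexes, no member was called in preadipocytes or in differentiated cells (0.0% of all genes by limma, with 1 member each and 550 and 159 genes at an unadjusted p below 0.05). These were EPAS1, higher in value in male preadipocytes (log2 1.07 ± 0.44, adjusted p = 0.846), and ENO2, lower in value in male differentiated cells (log2 -1.35 ± 0.54, adjusted p = 1.00). With a median standard error of 0.45 for 8 against 8 and 0.63 for 4 against 4 libraries, small differences were not detectable.

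Other genes of these pathways were counted in lists over the same stage comparison. There, 27.2% of all genes tested were called, 12.4% higher and 14.8% lower. The shares called in these short lists were near that of all genes. Of 14 other glycolysis genes tested, 2 rose and 3 fell, with a median log2 difference of 0.05. PFKFB1 (log2 3.17 ± 0.48, adjusted p = 7.65e-06) and HK3 (1.22 ± 0.31, adjusted p = 0.00293) rose from a few reads. PFKFB1 was at most 6.92 in preadipocytes and passed the filter only through differentiated libraries, which favours a rise. HK3 was at most 10.6 in preadipocytes with a median of 5.03, near the filter limit of 10. BPGM, which makes 2,3-bisphosphoglycerate, fell by 1.38 (adjusted p = 1.91e-05) and the muscle enolase ENO3 fell by 1.33 (adjusted p = 0.000506). Of the 28 other hypoxia response genes tested, 4 rose and 3 fell, with a median of 0.19. HIF3A, an alpha subunit that can restrain the others, was 0 at the median and at most 2.72 in preadipocytes and 0, 15.9 and 120.2 in differentiated cells (adjusted p = 4.50e-07). HIF3A too passed the filter only through differentiated libraries. CITED2, an inhibitor of HIF that competes for its coactivator, was 105.7, 306.1 and 793.2 before and 212.1, 1231 and 5913 after (log2 2.15 ± 0.31, adjusted p = 4.81e-06). ARNT2, a partner of the alpha subunits, fell by 2.15 (adjusted p = 0.000993), and BHLHE40, a repressor that hypoxia induces, fell by 1.56 (adjusted p = 0.00638). BHLHE40 was 6390 in FC replicate 1 and 6423 in FFGR replicate 1, which enlarges its fall. In the other 14 preadipocyte libraries it was at most 883.7 with a median of 383, against a median of 188.1 in differentiated cells. Its difference without these 2 libraries is not given here.

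The branches that leave glycolysis were counted in the same way, against the same 27.2% of all genes, and their shares were near it. Of 13 genes of glycogen, glycerol phosphate and gluconeogenesis, 3 rose and 1 fell. GPD1, which makes glycerol 3-phosphate for triglyceride, was 7.65, 52.9 and 150.1 in preadipocytes and 57.1, 407.2 and 6379 in differentiated cells (log2 3.74 ± 0.53, adjusted p = 3.14e-06). PCK1, of glyceroneogenesis, was at most 2.75 before and reached 42.2 after (adjusted p = 5.63e-05), and FBP2 fell by 2.11 (adjusted p = 0.000304). FBP1, which also rose, was at most 6.06 before and reached 46.9 after (log2 1.44 ± 0.56, adjusted p = 0.0492). Both PCK1 and FBP1 passed the filter only through differentiated libraries, which favours a rise. Of 7 genes of the pentose phosphate branch, which supplies NADPH, 2 rose. They were RPIA (log2 0.86 ± 0.24, adjusted p = 0.00634) and PGD (0.80 ± 0.25, adjusted p = 0.0138). None of these lists had a call for growth restriction at either stage.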

How the data were processed

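The 32 libraries were grouped by their labels. Per the labels and the study's methods, the authors checked reads with FastQC (0.11.9 in the submitters' processing notes), assigned them to Ensembl transcripts (build Oar_rambouillet_v1.0) with Salmon, and scaled the counts with DESeq2. The deposited signal of each transcript is this normalized read count, not whole. The table's 29 other numeric columns (8 group means and 21 columns of fold changes and p-values) were not used. Transcripts were summed per gene ID. Since the values were not whole reads, the test fixed for normalized values was used, limma 3.58.1 (R 4.3.3) with an empirical Bayes trend on log2(value + 1), over 32 libraries and 8 group means, tested on simulated data first. Fold changes on this scale understate those of low genes. Adjusted p-values are Benjamini-Hochberg over 12737 genes.

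Members, gene lists and tests were chosen with earlier results of these data known. Named genes were the members called in the stage comparison (up to 10), the 2 smallest unadjusted p in each pooled growth restriction comparison, and HIF1A, EPAS1, HK1, HK2 and VEGFA. Deviations from group means of same-numbered libraries correlated in every pair of MC and MCD (0.162 to 0.615), FC and FCD (0.303 to 0.508) and MFGR and MFGRD (0.393 to 0.671). In FFGR and FFGRD they did not in every pair (-0.398 for number 2). The main fit paired no libraries, and the replicate block for the stages used the numbers in every group, FFGR included. From the data and not the labels, the numbers were read as a sign of pairing in MC, FC and MFGR only. This split was not clean. MC replicate 2 correlated more with MCD replicate 1 than with MCD replicate 2, and FFGR replicates 3 and 4 matched their own numbers best (0.565 and 0.529). The alternatives were the own libraries of a comparison, a pseudocount of 0.1, quantile normalization, no filter, a filter of 20 CPM in 3 libraries, the replicate block, the slope on gene length as a covariate, library weights, the highest transcript and leaving out each library. No sequence is shown because none was available to read here.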

Additional observations from a re-analysis of the deposited data

Results flagged for a closer look

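Within groups of 4 libraries, 5 of 112 checks over 14 members found 1 library far from the other 3 on the log2(value + 1) scale (beyond Dixon's critical value), where chance alone gives about 5.6. EGLN3 in FFGR replicate 1 was 268.7, against 1.40 to 2.83 in the other FFGR libraries. HK1 in FC replicate 1 was 6367, against 1854 to 2139. SLC16A1 and HIF1A in FFGRD replicate 3, a library of low slope on gene length, were 962.6 (others 2576 to 2669) and 4389 (others 18230 to 20000). ENO2 in FFGRD replicate 2 was 0.789, against 4.73 to 6.01, a difference of a few reads.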

How the results depend on the processing

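Over all groups the stage comparison called 9 to 14 members under the other settings that kept all libraries and 10 to 13 when 1 library was left out, the most without FC replicate 1 or FFGR replicate 1. It called 17 without both, 6 without the 9 libraries of low slope and 14 without all of these, against 27.3%, 27.8% and 25.3% of all genes. All 10 calls held in each of the 32 fits without 1 library.

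Within groups, members called in MC were 1, and 3 with own libraries, 2 with quantile normalization, 3 with the replicate block, 3 with the slope covariate, 4 with library weights, 2 without FC 1 and FFGR 1, 0 without those and the low slopes, and 0 to 1 without 1 library (0 without MC 2 or MCD 3). In FC they were 0, and 1 with the replicate block, 2 with the slope, 3 with weights and 0 to 1 without 1 library (1 without FCD 4). In MFGR they were 0, and 1 with quantile normalization, 2 with the replicate block, 3 with the slope, 7 with weights, 1 without FC 1 and FFGR 1, 1 without the low slopes, 2 without both sets and 0 to 1 without 1 library (1 without MFGR 3 or MFGRD 4). In FFGR they were 4, and 1 with own libraries, 1 with no filter, 2 with the highest transcript, 7 without FC 1 and FFGR 1, 0 without the low slopes, 0 without both sets and 1 to 6 without 1 library (1 without FFGR 2, FFGR 3, FFGRD 1 or FFGRD 2). The replicate block changed no other count by over 1.5 times. These counts stand without the share of all genes called in each setting. Over all groups that share moved from 18.7% with no filter to 33.0% with the slope covariate. A change in the members therefore cannot be told here from a change in all genes. The cause of these changes was not tested.

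Growth restriction, its difference between stages and sex called 0 members under every setting. Counts near 10 normalized reads rest on a few reads, which limits ENO2, CA9 and EGLN3.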

Other observations

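Genes outside the list also had FC replicate 1 and FFGR replicate 1 as their highest 2 preadipocyte libraries. Among those at 100 or more in both and listed in the order of the gap to the other 14 libraries, the first were UPP1, uridine phosphorylase (1004 and 1112, the others at most 42.3), and SLC2A3, a high-affinity glucose transporter (78280 and 73270, at most 3395). CARMIL2 (352.8 and 390.6, at most 24.5), IER3, an early response gene (7614 and 13930, at most 620.9), and ZFP36L2, which promotes decay of RNA (3855 and 4054, at most 334.6), followed. In the differentiated libraries of the same numbers SLC2A3 was 2415 and 1109. These genes were chosen after their values were seen, and the cause was not tested.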
